A study of Mus musculus with 8 samples.

Results

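Serpinh1 and 8 genes of collagen processing were followed through the cell types of the mouse lung after chronic exposure to cigarette smoke (CS). The 9 genes, of 33,027 in the matrix, were Serpinh1, P4ha1, P4ha2, P4hb, Plod1, Plod2, Plod3, Colgalt1 and Pcolce. They were chosen by their place in the collagen pathway and because Serpinh1 was lower in CS mice in 6 cell types, so the values of Serpinh1 in CS against room air (RA) are given as a description, with no test. The other 8 genes were measured in the same cells of the same mice and are not independent support for Serpinh1.

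The mice were Sftpc-CreERT2-mTmG animals, in which tamoxifen, given to all of them, switches alveolar type II (AT2) cells, through the Sftpc promoter, from the red to the green reporter. All 8 mice, controls included, carried both alleles on a C57BL/6 background and were 8–10 weeks old at tamoxifen, given before exposure began. Littermates went at random to CS for 10 months (4 mice) or to RA (4 mice), and each group held 2 mice labelled male and 2 labelled female. Right lungs were digested with enzymes, cells were separated by CD45 on magnetic columns and remixed so that immune (CD45-positive) cells made up a fixed minority, and droplet libraries of the 3′ ends of transcripts were sequenced in 4 lanes with 1 CS and 1 RA mouse each.

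After filtering, 20,330 cells came from CS lungs and 19,744 from RA lungs, with 33,145,096 to 48,490,570 unique molecular identifiers (UMIs) per CS mouse and 31,094,695 to 52,753,531 per RA mouse. The sex-linked transcripts went against the label in all 4 CS libraries. Xist was at 7.83 and 8.34 per 10,000 transcripts in the CS libraries labelled male, and the Y-linked Ddx3y at 0.925 and 1.08 in those labelled female, while the RA libraries matched their labels. No comparison of CS with RA is left without these 4 libraries, so sex was used only as labelled, in an alternative fit and in a description of the RA mice. That fit gives every CS library the sex its transcripts go against, so it does not adjust for sex. There were 190 cell barcodes that occurred in more than 1 library, covering 380 of the cells used. Each of 19 marker genes, such as Pi16 for adventitial fibroblasts, Msln for mesothelial cells, Ednrb for capillary A and Gpihbp1 for capillary B endothelial cells, was highest in the cell type it was meant to mark. These were 1 gene per type from a longer planned list, whose other genes are not given here. Peribronchial fibroblasts, non-classical monocytes and cells labelled mast cells had no marker among the 19.

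Collagen chains are made in the endoplasmic reticulum (ER) and must be modified before they can fold into a triple helix. Prolyl 4-hydroxylase, built of catalytic subunits (P4ha1 or P4ha2) and the disulfide isomerase P4hb, hydroxylates prolines and so stabilises the helix. The lysyl hydroxylases Plod1, Plod2 and Plod3 act on lysines, and Colgalt1 adds galactose to hydroxylysine. Serpinh1, also called HSP47, is a chaperone that binds folded procollagen and escorts it out of the ER. Pcolce is secreted and enhances the removal of the C-terminal propeptide outside the cell. In the lung these steps serve the interstitial collagen made by fibroblasts and the basement membranes of endothelium and epithelium.

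The sequence upstream of Serpinh1 is shown because ER chaperones, whose promoters often carry an ER stress response element (ERSE), are described beside this gene further on. The gene lies on chr7:99345376-99353239 of GRCm38, minus strand, and the RefSeq promoter window of 300 bases (GRCm38.p6, chr7:99353190-99353489, minus strand, 250 bases before the start of transcription and 50 after it) has 62.3% G and C. Capitals mark the match to ACGTG, the core of the hypoxia response element, on either strand.

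Serpinh1: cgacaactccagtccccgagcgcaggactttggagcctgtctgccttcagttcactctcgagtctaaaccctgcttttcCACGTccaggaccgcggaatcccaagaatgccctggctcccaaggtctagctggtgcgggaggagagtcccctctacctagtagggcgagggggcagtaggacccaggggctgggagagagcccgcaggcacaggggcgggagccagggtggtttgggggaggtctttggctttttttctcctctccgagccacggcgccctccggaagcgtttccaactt

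The match began 171 bases before the start, and 19.6% of the 32,851 promoter windows in the table held this motif on either strand. The window held neither the ERSE (CCAAT and CCACG with any 9 bases between them, both strands) nor a pair of inverted heat shock units (GAANNTTC or TTCNNGAA), which says only that these letters are not in this window. None of the 8 member genes with a window held an ERSE, against 0.119% of all windows and 7 of 11 genes on a list of ER chaperones. For comparison, the elements of 3 of these chaperones follow, with the fixed letters in capitals.

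Hspa5, chr2:34772025-34772043, plus strand: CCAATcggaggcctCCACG

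Pdia6, chr12:17266491-17266509, plus strand: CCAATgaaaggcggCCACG

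Dnajc3, chr14:118937827-118937845, plus strand: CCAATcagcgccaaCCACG

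Plod2 had no entry among the promoter windows used here. The heat shock pair was found in 15.1% of all windows, in 10 of 15 windows of a heat shock gene list (those of the mitochondrial chaperonins Hspd1 and Hspe1 among them) and in those of P4ha2, Plod1 and Colgalt1 among the members.

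In RA mice, Serpinh1 was highest in stromal cells among the 22 types tested. The authors labelled 32 types, multiplets left out, and the rest had too few cells. Smooth muscle cells and pericytes are not among the 22. Its level, as the mean of transcripts per 10,000 over the cells of a type in one mouse, was highest in adventitial fibroblasts at 12.9 ± 3.06 (SD, n = 4) and mesothelial cells at 11.0 ± 2.56 (n = 4), whose ranges overlapped. Alveolar fibroblasts followed at 6.62 ± 1.17 (n = 4) and peribronchial fibroblasts at 4.85 ± 0.916 (n = 3), again with overlapping ranges and alveolar fibroblasts lay below the range of the first pair. Below these, endothelial cells ran from 3.31 ± 0.430 in lymphatic through 2.67 ± 0.218 in capillary A, 2.29 ± 0.388 in venous and 2.06 ± 0.278 in arterial to 1.95 ± 0.338 in capillary B cells. AT1 cells, the flat epithelium of gas exchange, stood among the endothelial types at 2.56 ± 0.631. Neighbours in this middle part of the order overlapped in range. Ciliated cells, AT2 cells, club cells and goblet cells were at 0.958, 0.896, 0.328 and 0.327, and each of the 8 immune types was at 0.102 or below.

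Across all 8 mice, the stromal level of Serpinh1 was above the endothelial, epithelial and immune levels in each mouse. For this comparison a compartment is the mean over its types of log2(level + 1), for types with at least 20 cells in every mouse, with adventitial and alveolar fibroblasts as the stroma. The differences were 1.34 ± 0.288, 2.06 ± 0.436 and 2.78 ± 0.536 on this log2 scale (SD over 8 mice; exact sign-flip permutation test, two-sided, p = 0.00781, the smallest that 8 mice allow; adjusted p = 0.01 over 27 such tests).

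**Figure D1:**
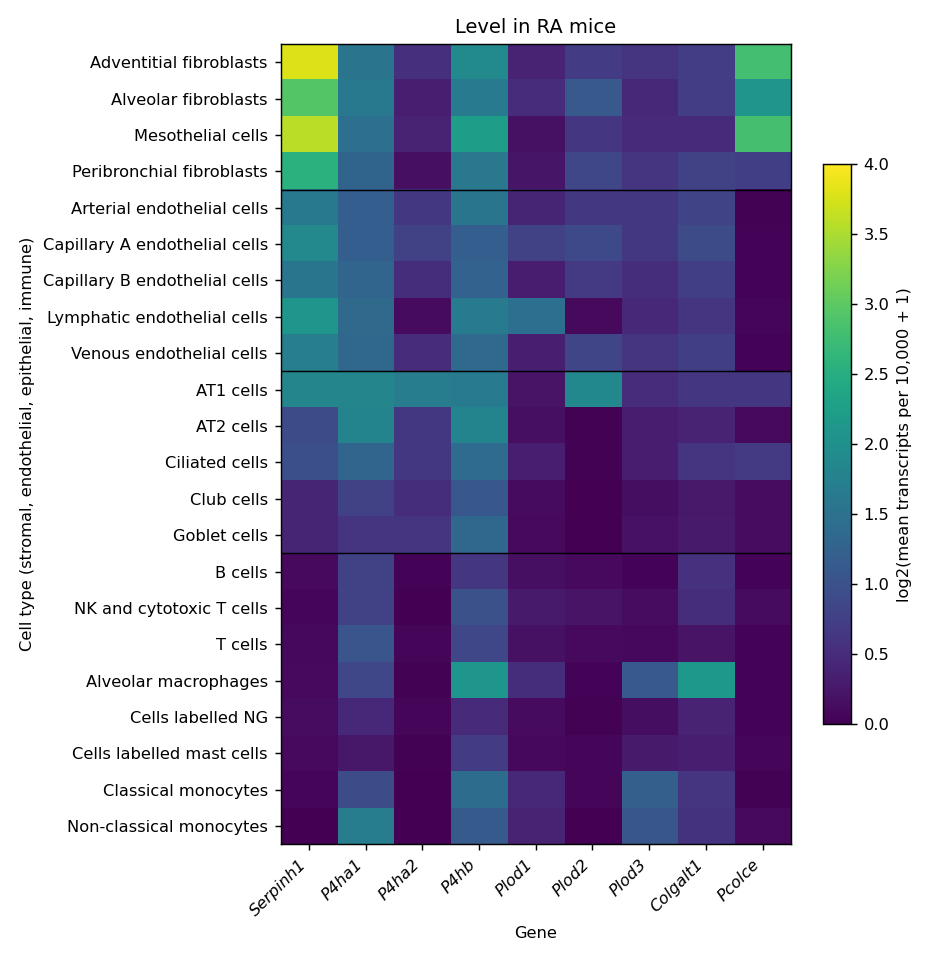
Level of the 9 genes in the 22 cell types of RA mice, as log2 of the mean transcripts per 10,000 plus 1 (colour), with cell types in rows grouped as stromal, endothelial, epithelial and immune. Serpinh1 and Pcolce were brightest in the stroma, P4ha2 and Plod2 in AT1 cells and Colgalt1 in alveolar macrophages.

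The other members were not distributed like Serpinh1. Pcolce came nearest, with 6.05 ± 0.978 per 10,000 in mesothelial cells, 6.01 ± 1.39 in adventitial fibroblasts and 3.26 ± 0.408 in alveolar fibroblasts, and stood 2.32 ± 0.201 above the endothelium (log2 scale, higher in 8 of 8 mice, exact sign-flip permutation test, adjusted p = 0.01). P4hb, which also serves as a general disulfide isomerase, passed the detection limit in all 22 types and was highest in mesothelial cells (3.72 ± 0.431) and alveolar macrophages (3.29 ± 0.755), whose ranges overlapped. P4ha1 was spread over AT1 cells (2.55 ± 0.330), AT2 cells (2.50 ± 0.548), non-classical monocytes (2.22 ± 0.165, n = 3) and fibroblasts, with overlapping ranges. P4ha2 had 1 clear peak, AT1 cells at 2.20 ± 0.593, above every other type in every RA mouse, the next being capillary A cells at 0.727 ± 0.361.

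The lysyl hydroxylases differed from each other in the same way. Plod2, the enzyme for the telopeptide lysines, was highest in AT1 cells (2.64 ± 0.900) and then in alveolar fibroblasts (1.16 ± 0.0786). Plod1 was highest in lymphatic endothelial cells at 1.76 ± 0.118. Plod3 was highest on average in classical monocytes at 1.33 ± 0.282. Their range overlapped those of alveolar macrophages (1.16 ± 0.296) and non-classical monocytes (1.11 ± 0.273, n = 3). The galactosyltransferase Colgalt1 was at 3.38 ± 0.252 in alveolar macrophages and at 0.886 ± 0.119 in the next type, capillary A cells. Of the 27 compartment comparisons, 22 passed an adjusted p of 0.05 (exact sign-flip permutation test). In 20 of these the stroma was higher, and the exceptions were P4ha2, lower than the epithelium by −0.33 ± 0.0735, and Plod1, lower than the endothelium by −0.19 ± 0.0387. A compartment is a mean over types, so it can hide a single high type. The stroma was above the epithelium for Plod2 and P4ha1, though AT1 cells had the highest RA mean of both genes.

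The level profile of Serpinh1 over the 22 types in RA mice was most like those of Fkbp9 (Pearson r = 0.966), Sgce (0.961), P3h1 (0.949), Evc (0.948) and Copz2 (0.948), out of 15,350 genes compared. These r are descriptions over cell types of the same 4 mice, which share libraries, and carry no test. Fkbp9 encodes a prolyl isomerase of the ER and P3h1 the prolyl 3-hydroxylase of collagen. Between CS and RA, Fkbp9 was not called in any of the 6 types where Serpinh1 was chosen, and P3h1 in none of the 5 in which it was measured, with log2 differences of −0.07 for Fkbp9 and −0.04 for P3h1 in adventitial fibroblasts (limma, adjusted p = 0.667 and 0.717). The same r was 0.799 for Pcolce, 0.668 for Plod2, 0.655 for P4hb and 0.607 for P4ha1, and 0.103 for Colgalt1.

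Serpinh1 was lower in CS mice in the 6 types by which it was chosen. They were called on limma applied to log2(level + 1) for genes detected in 10% or more of the cells in one group, with Benjamini-Hochberg adjusted p under 0.05 over 2819 to 11,842 genes per type. The share of all tested genes called lower was 0.234% in mesothelial cells, 1.19% in adventitial fibroblasts, 0.672% in alveolar fibroblasts, 0.328% in arterial, 0.989% in capillary A and 3.97% in capillary B endothelial cells. Since Serpinh1 was chosen by these calls, nothing is read from the count.

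In mesothelial cells, the lining of the lung surface, Serpinh1 was at 3.23, 3.77 and 4.08 per 10,000 in 3 CS mice and at 8.10, 9.89, 12.2 and 13.9 in 4 RA mice. The fourth CS mouse had fewer than 20 of these cells and was left out. The difference was −1.34 ± 0.165 (log2 scale, SE), the largest of the 14 types in which the gene passed the detection limit.

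In adventitial fibroblasts, which sheathe the large vessels and airways, it was at 4.70, 5.69, 6.46 and 7.45 in CS mice and at 10.2, 11.4, 12.8 and 17.2 in RA mice. In alveolar fibroblasts it was at 2.44, 2.99, 3.04 and 3.16 against 4.93, 6.80, 7.25 and 7.51. No CS mouse reached any RA mouse in either type, and the differences were −0.96 ± 0.169 and −0.95 ± 0.128.

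The endothelial differences were smaller and, at these low levels, are compressed by the addition of 1 before the logarithm. Arterial cells had 0.878, 1.06, 1.12 and 1.14 in CS mice against 1.82, 1.90, 2.08 and 2.44 in RA mice, a mean 49.1% lower. Capillary A cells had 1.50, 1.66, 1.77 and 1.995 against 2.37, 2.71, 2.73 and 2.88, a mean 35.2% lower. Capillary B cells had 1.01, 1.09, 1.22 and 1.51 against 1.53, 1.81, 2.18 and 2.26, a mean 38.1% lower. In all 3 the groups were separate, though in capillary B cells by a narrow margin, and the log2 differences were −0.58 ± 0.107, −0.43 ± 0.0777 and −0.42 ± 0.0957.

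**Figure D2:**
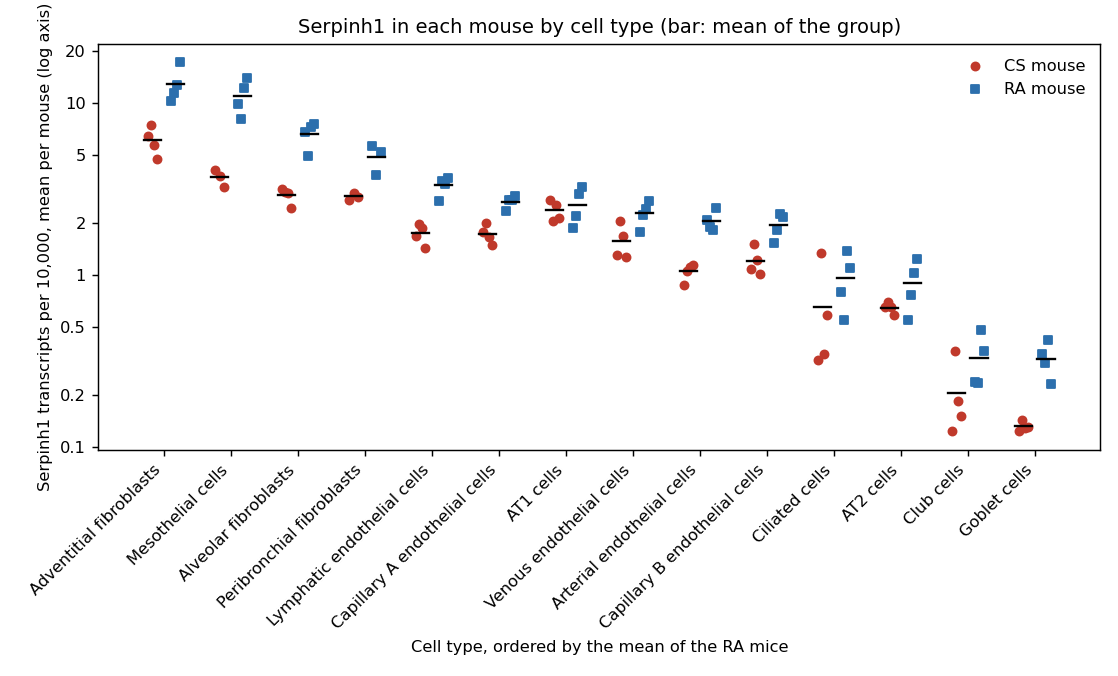
Serpinh1 transcripts per 10,000 in each mouse (log axis) for the 14 cell types in which the gene passed the detection limit, with CS mice as circles, RA mice as squares and the group mean as a bar. In the stroma the CS mice sit below the RA mice with a gap, while in AT1 cells the CS values, 2.07 to 2.73, lie within the RA range of 1.87 to 3.23.

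Just outside the threshold, lymphatic endothelial cells were at 1.44 to 1.98 in CS mice and at 2.69 to 3.66 in RA mice (log2 difference −0.65 ± 0.138), and goblet cells at 0.123 to 0.143 against 0.233 to 0.419 (−0.23 ± 0.0535). Peribronchial fibroblasts, with 3 mice in each group, were at 2.73 to 3.01 against 3.83 to 5.58 (−0.59 ± 0.212). These groups were also separate, so the 6 called types are not set apart from these 3 by overlap. Venous endothelial (−0.35), ciliated (−0.27), AT2 (−0.19) and club cells (−0.14) were lower on average with overlapping groups. AT1 cells, whose level was like that of the endothelium, were at 2.37 ± 0.321 in CS and 2.56 ± 0.631 in RA mice, a log2 difference of −0.07 ± 0.118. In all 6 called types the CS mouse was below the RA mouse of its own lane in every lane with both, which follows from the separate groups. The same held in lymphatic, venous, ciliated, club and goblet cells and peribronchial fibroblasts, none of them called, but not in AT2 or AT1 cells.

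The share of cells with a Serpinh1 transcript moved in the same direction. After each cell was thinned to 2000 UMIs, it was 46.5% ± 2.17 in CS and 83.1% ± 9.17 in RA mesothelial cells, 62.3% ± 7.93 and 85.6% ± 3.29 in adventitial fibroblasts, 46.6% ± 5.48 and 67.5% ± 3.35 in alveolar fibroblasts, and 20.7% ± 2.76 and 31.2% ± 4.84 in capillary B cells. Unthinned, it was 94.0% and 98.2%, 94.0% and 97.4%, 78.4% and 90.1%, and 38.8% and 53.8%. B cells, which should lack the gene, had 0.817% ± 0.762 and 1.15% ± 0.103 after thinning and 3.01% and 3.12% before, at median depths of 4116 and 3780 UMIs against 4133 and 4287 in capillary B cells.

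Depth overlapped between the groups in each of the 6 types. The summed level of 6 fibroblast markers (Col1a1, Col1a2, Col3a1, Dcn, Pdgfra and Lum) was 0.0593 to 0.493 per 10,000 in the 3 endothelial types of CS mice and 0 to 0.219 in those of RA mice, against 101 to 135 in adventitial fibroblasts of both groups, and no marker of the 6 was at 0 in all mice of an endothelial type. The mean of 5 of the 6 markers was higher in CS than in RA mice in arterial cells, 1 in capillary A and 2 in capillary B cells. The median mitochondrial share of mesothelial cells was 2.39% to 2.82% in CS and 1.97% to 2.35% in RA mice and overlapped between groups in the other 5 types. The part of fibroblast RNA or of mitochondrial share in the result was not tested.

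The number of types in which Serpinh1 was called rested on single mice and on the detection filter. It was 6 with all mice and fell to 3, 2 and 1 without CS replicates 1, 3 and 4, and to 3 without RA replicate 4. With CS replicate 4 left out, only alveolar fibroblasts were called, and with the sequencing lane as a term 3 types were called (mesothelial cells, alveolar fibroblasts and arterial endothelial cells). With no detection filter, where more genes were tested, it was called in 0. The log2 difference stayed between −1.53 and −0.37 in the 6 types under all alternatives.

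Among the prolyl 4-hydroxylase subunits, P4ha2 had the clearest relation to exposure. It fell in ciliated cells and in capillary B endothelial cells, and it was lower on average in all 12 types in which it passed the detection limit. In ciliated cells, it was at 0.126, 0.146, 0.178 and 0.212 per 10,000 in CS mice and at 0.475, 0.535, 0.617 and 0.634 in RA mice, with a wide gap between the groups. The mean was 70.8% lower, with a log2 difference of −0.43 ± 0.0371 (limma, adjusted p = 0.000702). The share of genes called lower in ciliated cells was 1.91%. This call passed under all 17 alternatives, leaving out each mouse included, with adjusted p from 0.000346 to 0.0127 (limma). The fit with labelled sex is among these and does not adjust for sex.

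In capillary B cells, P4ha2 was at 0.176, 0.202, 0.226 and 0.254 in CS mice and at 0.310, 0.385, 0.461 and 0.597 in RA mice, a mean 51.0% lower (log2 difference −0.24 ± 0.0541, limma, adjusted p = 0.0315). This call was lost when any 1 CS mouse or RA replicate 2 was left out, with lane as a term and with no detection filter, with adjusted p from 0.0195 to 0.131 over 15 alternatives.

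P4ha2 did not pass in the other 10 types. In capillary A cells it was at 0.214 to 0.286 in CS mice and at 0.490, 0.556, 0.595 and 1.26 in RA mice (log2 difference −0.44 ± 0.106, limma, adjusted p = 0.0577), where 1 RA mouse stood far above the others, and it passed under 6 of 17 alternatives. In AT1 cells, its main site, it was at 1.55 to 1.78 against 1.83 to 3.08 (−0.25 ± 0.105, adjusted p = 0.236). In adventitial and alveolar fibroblasts the differences were −0.17 ± 0.0636 and −0.08 ± 0.0431 (limma, adjusted p = 0.139 and 0.28).

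Among the 11 types with 4 mice per group and P4ha2 above the detection limit, every CS mouse was below every RA mouse in 8. Over all genes and the 17 types with 4 mice per group, this was so for 4.46% of gene and type pairs. The 8 types come from the same 8 mice and are not independent. The detection limit can be met by 1 group alone, for P4ha2 and for all the other pairs. The other members gave 9 such pairs of 90, of which 4 were Plod1, 2 P4ha1, 2 Plod3 and 1 P4hb. The reverse, with all CS mice higher than all RA mice, was seen in 2 of the 90, P4hb in AT1 cells and Colgalt1 in ciliated cells, against 6% of all pairs.

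**Figure D3:**
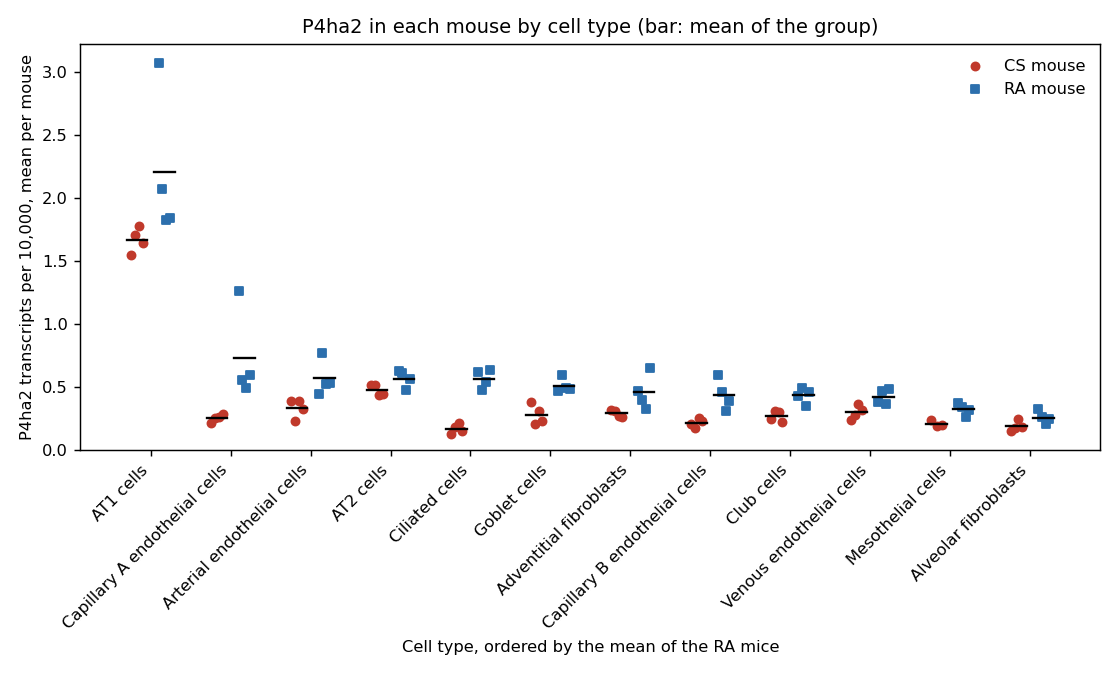
P4ha2 transcripts per 10,000 in each mouse for the 12 cell types in which the gene passed the detection limit, with CS mice as circles, RA mice as squares and the group mean as a bar. AT1 cells have the highest level, and the gap between groups relative to the level is widest in ciliated cells, at 0.126 to 0.212 in CS against 0.475 to 0.634 in RA mice.

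The P4ha2 promoter window is shown because it holds both the heat shock pair and ACGTG. It is the RefSeq window chr11:54100674-54100973 (GRCm38.p6, plus strand, 70.3% G and C). Capitals mark the heat shock pair, 52 bases before the RefSeq start, and the matches to ACGTG, 78 bases before and 10 bases after that start. The whole window lies inside the GENCODE span of the gene (chr11:54100095-54131665), so these distances do not refer to the first base of that span.

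P4ha2: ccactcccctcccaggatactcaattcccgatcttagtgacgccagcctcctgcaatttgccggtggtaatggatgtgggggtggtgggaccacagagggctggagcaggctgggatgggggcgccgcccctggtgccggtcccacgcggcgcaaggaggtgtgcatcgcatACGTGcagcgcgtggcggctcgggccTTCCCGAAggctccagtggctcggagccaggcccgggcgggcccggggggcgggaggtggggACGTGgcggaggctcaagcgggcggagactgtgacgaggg

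P4ha1, the other catalytic subunit, was not called in any of its 20 types. Its lowest adjusted p was 0.0729 (limma) in capillary A cells, at 0.863, 0.901, 0.959 and 0.988 in CS mice and 1.12, 1.12, 1.42 and 1.46 in RA mice (log2 difference −0.24 ± 0.064). This pair passed under 4 of 17 alternatives, with adjusted p from 0.0345 to 0.243. P4hb was not called in any of 22 types, with log2 differences from −0.26 ± 0.0840 in alveolar fibroblasts to 0.27 in cells labelled mast cells. In alveolar fibroblasts P4hb was at 1.47 to 1.77 in CS and 1.84 to 2.31 in RA mice (limma, adjusted p = 0.108).

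Plod1 and Plod3 fell in 1 type, ciliated cells, where their levels were low. Plod1 was at 0.159, 0.175, 0.189 and 0.201 per 10,000 in CS mice and at 0.223, 0.254, 0.274 and 0.282 in RA mice, a mean 29.8% lower, with a log2 difference of −0.09 ± 0.0212 (limma, adjusted p = 0.0391). Plod3 was at 0.155, 0.160, 0.172 and 0.180 against 0.203, 0.235, 0.254 and 0.260, a mean 30.0% lower, with a log2 difference of −0.09 ± 0.0197 (limma, adjusted p = 0.0377). The groups were separate for both genes, and at these levels the addition of 1 compresses the log2 difference. Each passed under 7 of 16 alternatives, and neither passed with lane as a term. Plod2 was not called in its 9 types, with log2 differences from −0.13 to 0.25.

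Colgalt1 and Pcolce were not called anywhere. Colgalt1 was higher on average in CS mice in 18 of its 20 types, with log2 differences from −0.05 to 0.20 and a lowest adjusted p of 0.12 (limma). Pcolce, which like Serpinh1 is a gene of the stroma, was at 4.04, 4.88, 5.27 and 5.28 in CS and 4.22, 5.96, 6.23 and 7.61 in RA adventitial fibroblasts, with overlapping groups (−0.24 ± 0.15, limma, adjusted p = 0.37). In mesothelial cells its log2 difference was −0.26 ± 0.127 (limma, adjusted p = 0.398).

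Together the 8 genes other than Serpinh1 gave 125 gene and type pairs above the detection limit, of 176 possible. Of these, 4 were called lower and 0 higher (limma), against 0.518% of all pairs called lower and 0.712% called higher over the 22 types. At an unadjusted p under 0.05 there were 25 lower and 5 higher pairs of the 125, against 6.3% lower and 8.92% higher among all pairs. The 4 calls fell to 1 without CS replicate 1, 3 or 4, with lane as a term or with no detection filter, and to 2 without CS replicate 2 or RA replicate 4.

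**Figure D4:**
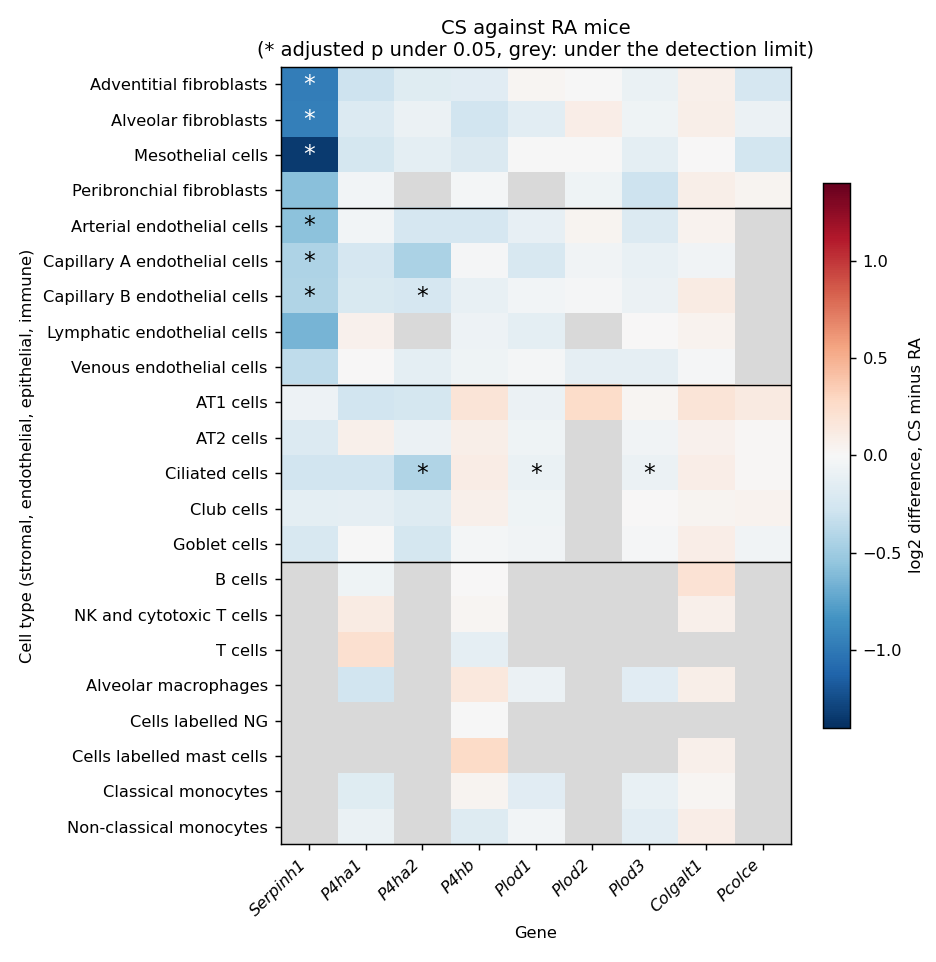
log2 difference, CS minus RA, of the 9 genes (columns) in 22 cell types (rows), on log2(level + 1), with blue for lower in CS, an asterisk for an adjusted p under 0.05 and grey where the gene was under the detection limit. Serpinh1 is blue in each of its 14 types, from −1.34 to −0.07, and P4ha2 in each of its 12, while Colgalt1 is mostly pale red; the asterisks of Serpinh1 are what it was chosen by.

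Whether the other members differed between stroma and endothelium in their response was tested by permuting exposure over mice. None of 8 passed (exact permutation test, two-sided, 70 assignments, adjusted p from 0.286 to 0.743, with no unadjusted p under 0.05). The smallest p this design allows is 0.0286, so a single gene could not pass after adjustment over 8, and the test does not show that the effects were alike. Pcolce was under the detection limit in all endothelial types. For P4ha1 the difference between the CS effects was −0.16 (stromal −0.24, endothelial −0.08), for P4hb −0.12 and for P4ha2 0.10. For Serpinh1, described only, the stromal effect was −0.96 and the endothelial effect −0.48. The addition of 1 before the logarithm compresses the endothelial effect more, since its levels are lower. The mean level of Serpinh1 was 52.8% lower in adventitial and 56.1% lower in alveolar fibroblasts of CS mice. In the 5 endothelial types it was 30.7% to 49.1% lower.

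Collagen chains were counted in the 6 types where Serpinh1 was chosen. There, 50 gene and type pairs from 16 of 17 collagen chain genes could be measured. Of these, 0 were called lower and 2 higher (limma), against 1.09% lower and 1.5% higher among all pairs in these types. With so low a general share, 0 lower of 50 is no result about collagen. The median log2 difference of the 50 pairs was 0.14, against 0.00319 for all pairs. The pairs called higher were Col5a2 in arterial endothelial cells (1.16 ± 0.233 in RA and 2.52 ± 0.803 in CS mice, log2 difference 0.68 ± 0.15, limma, adjusted p = 0.045) and the basement membrane chain Col4a1 in capillary B cells (3.44 ± 0.175 in RA and 4.47 ± 0.317 in CS mice, 0.30 ± 0.0773, adjusted p = 0.0408).

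Of the fibrillar chains that Serpinh1 binds, Col1a1 was at 13.3 ± 4.25 in CS and 10.2 ± 2.46 in RA adventitial fibroblasts (log2 difference 0.32 ± 0.218, limma, adjusted p = 0.404) and at 5.21 ± 1.31 and 4.26 ± 0.915 in alveolar fibroblasts. Col1a2 was at 18.7 ± 4.95 and 14.6 ± 2.99 in adventitial fibroblasts (limma, adjusted p = 0.343). Both overlapped between groups in fibroblasts. In mesothelial cells the chains were lower on average, Col1a1 at 0.465 to 0.740 in CS and 0.841 to 1.46 in RA mice (log2 difference −0.37 ± 0.103) and Col1a2 at 0.561 to 0.923 and 0.932 to 1.44 (−0.36 ± 0.0981), each with separate groups and without passing the test (limma, adjusted p = 0.175 for both). Col3a1 was at 3.03 ± 0.689 and 3.45 ± 0.503 there, with overlapping groups. The median log2 difference of the listed chains was −0.03 in mesothelial cells, 0.19 in adventitial and 0.15 in alveolar fibroblasts. For every 100 transcripts of Col1a1, Col1a2 and Col3a1 together, adventitial fibroblasts held 10.4 to 17.1 transcripts of Serpinh1 in CS mice and 28.4 to 47.9 in RA mice, alveolar fibroblasts 17.5 to 27.5 and 37.4 to 109, and mesothelial cells 80.6 to 96.1 and 122 to 250. This ratio uses the Serpinh1 values by which the gene was chosen.

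Other steps of collagen making, and a separate list of hypoxia-linked genes, gave few calls in the 6 types. Where there were any, their shares were not below the 1.09% lower and 1.5% higher among all pairs. Of 48 pairs from genes of prolyl 3-hydroxylation and collagen foldases, 1 was called lower, the prolyl isomerase Ppib in alveolar fibroblasts (2.23 ± 0.158 in CS and 3.27 ± 0.306 in RA mice, log2 difference −0.40 ± 0.0899, limma, adjusted p = 0.047). Of 97 pairs from genes for ER exit, 2 were called lower, both Kdelr2, a receptor that returns ER proteins from the Golgi, in alveolar fibroblasts (−0.45) and capillary B cells (−0.19). Of 27 pairs from genes of extracellular maturation, 1 was called higher, the procollagen N-proteinase Adamts2 in alveolar fibroblasts (2.18 ± 0.143 in CS and 1.45 ± 0.199 in RA mice, 0.38 ± 0.084, limma, adjusted p = 0.0433). Of 39 pairs from further hypoxia-linked genes, 1 was called lower, the glycolytic enzyme Pgk1 in adventitial fibroblasts (−0.27).

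ER chaperones were lower in the 6 types where Serpinh1 was chosen and in ciliated cells, and the other types were not counted. This list and that of heat shock genes were chosen with earlier results of these data known. Of 75 pairs from 13 ER chaperones and disulfide isomerases, 48 were called lower and 0 higher in the 6 types (limma), against 1.09% lower among all pairs, with a median log2 difference of −0.52. By type, 11 of 13 were lower in adventitial fibroblasts, 10 of 13 in alveolar fibroblasts, 7 of 13 in mesothelial cells, 5 of 13 in arterial, 5 of 11 in capillary A and 10 of 12 in capillary B cells. They were lower in ciliated cells too, 11 of 13 with a median of −0.33, where Serpinh1 was not called and 1.91% of all genes were lower. The shares of all genes called lower differ between the 6 types, from 0.234% in mesothelial to 3.97% in capillary B cells. This count fell to 21 without CS replicate 4 and to 30 without CS replicate 3 or with lane as a term, to 31 without CS replicate 1, and to 5 with no detection filter.

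Hspa5, the main chaperone of the ER lumen, was at 6.74 ± 1.07 in CS and 16.5 ± 1.31 in RA adventitial fibroblasts (log2 difference −1.18 ± 0.13, limma, adjusted p = 0.002) and missed the threshold in capillary A cells (−0.59, adjusted p = 0.0594). Pdia6, a disulfide isomerase, was lower in all 6 types, for instance at 1.26 ± 0.238 and 3.02 ± 0.555 in alveolar fibroblasts (−0.83 ± 0.111, limma, adjusted p = 0.00542). Manf, a secreted protein of the ER stress response, was lower in all 6, from −1.45 ± 0.135 in mesothelial cells to −0.38 ± 0.0747 in capillary B cells.

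Heat shock genes, mostly cytosolic but with the mitochondrial Hspd1 and Hspe1, gave 27 lower and 0 higher pairs of 108, against the same 1.09% lower among all pairs, with a median of −0.21. By type, 10 of 18 were lower in capillary A, 9 in capillary B and 1 in arterial cells, 4 in adventitial and 1 in alveolar fibroblasts, 2 in mesothelial cells and, outside the 6 types, 12 in ciliated cells, against 0.989%, 3.97%, 0.328%, 1.19%, 0.672%, 0.234% and 1.91% of all genes in that order. Differences between types or lists were not tested. Hspa1a, Hspa1b, Hsph1, Bag3, Hspa4l, Chordc1 and Hspd1 were called in none of the 6 types. Of these, Chordc1 and Hspd1 were lower on average in all 6 types. The log2 differences of the others took both signs, from −1.01 to 0.30 for Hspa1a and from −0.47 to 0.63 for Hspa1b. Fkbp4, a co-chaperone of Hsp90, was lower in 5 of the 6 types, and Hspa8, the constitutive Hsc70, was at 4.18 ± 0.675 in CS and 9.05 ± 0.664 in RA capillary B cells (−0.96 ± 0.115, limma, adjusted p = 0.0113). Without CS replicates 1, 3 and 4 the count fell to 13, 16 and 7, with lane as a term to 13 and with no detection filter to 1.

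**Figure D5:**
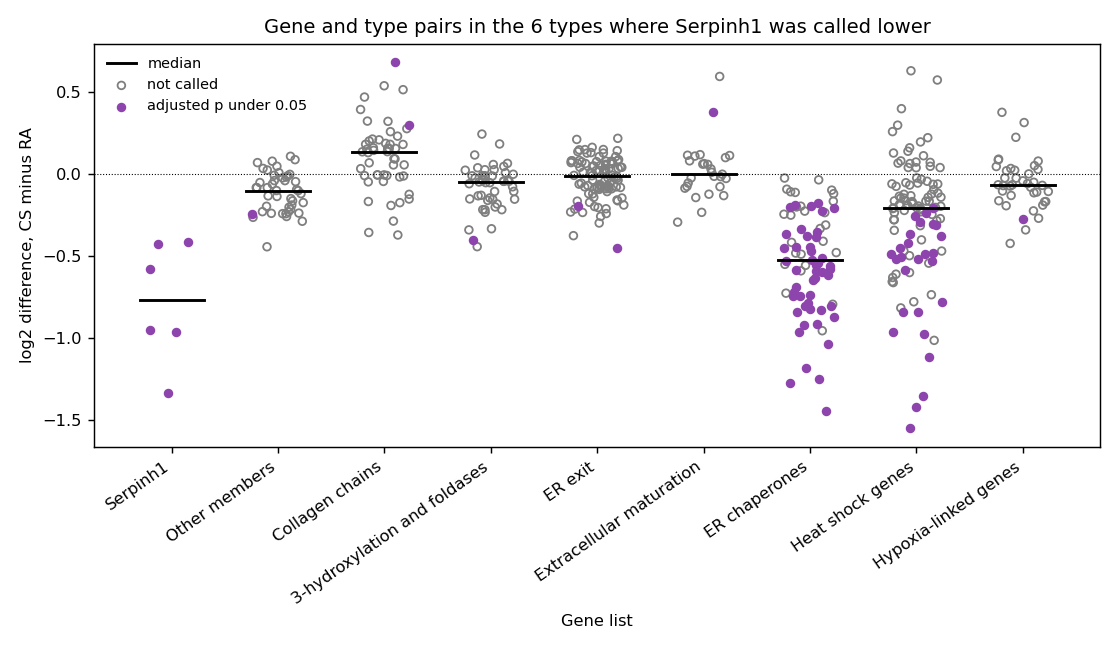
log2 differences, CS minus RA, of gene and type pairs in the 6 types in which Serpinh1 was chosen, by gene list, with filled points for an adjusted p under 0.05, open points for the rest and a bar for the median. The median lies at −0.52 for ER chaperones and −0.21 for heat shock genes, and at 0.14 for collagen chains.

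The profile of log2 differences of Serpinh1 over its 14 types was most like those of Spcs2 (Pearson r = 0.94), Manf (0.925), Dnajc3 (0.918), Cnpy3 (0.918) and Gm11942 (0.907), among 4827 genes measured in all 14. These are descriptions that rest on the same mice. Since these genes were picked by likeness to the differences of Serpinh1, their own differences give no further support. Spcs2, at −0.60 in alveolar fibroblasts and −0.24 in capillary A cells, is a subunit of the signal peptidase. Dnajc3 is an ER co-chaperone and Cnpy3 a chaperone of the ER for toll-like receptors. P4hb had r = 0.815, Plod3 0.379, Colgalt1 0.276 and P4ha1 0.257.

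Other gene groups also differed between the groups in the same cells. Of 60 pairs from 10 early response genes, which can rise during tissue digestion, 7 were called lower in CS mice and 0 higher (limma), against 1.09% lower among all pairs, and 6 of the 7 were in capillary B cells, where 3.97% of all genes were lower, with a median of −0.34 over the 6 types. Of 71 pairs from 14 clock genes, 0 were called lower and 11 higher (limma), against 1.09% and 1.5% of all pairs, with a median of 0.16. Dbp, a clock output gene, had log2 differences from 0.48 to 0.95, and the clock activator Arntl from −0.35 to −0.10 with no call. Their part in the result for Serpinh1 was not tested.

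Some of the members share their locus with other genes. In the GENCODE M21 annotation of GRCm38, Serpinh1, P4ha1 (chr10:59323296-59373304), P4ha2 (chr11:54100095-54131665), P4hb (chr11:120560298-120573253) and Plod1 (chr4:147909753-147936767) overlapped no other gene. Plod3 (chr5:136987019-136996648) overlapped Znhit1 on the other strand and the microRNA gene Mir702 on the same strand, Colgalt1 (chr8:71610998-71624911) overlapped Unc13a on the other strand, and Pcolce (chr5:137605103-137613784) overlapped Fbxo24 on the same strand and the antisense gene Gm36266. Plod2 (chr9:92542223-92608428) overlapped an unclassified transcript on the other strand. Counts of Pcolce and Plod3, and of Colgalt1 and Plod2 if strand was not used, could hold reads of these neighbours.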

How the data were processed

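Single-cell RNA-seq of lung cells from 8 mice was used. The authors aligned reads with STAR 2.7.3a (STARsolo, per the labels) to GRCm38.p6 with GENCODE annotation and the reporter genes, added unspliced to spliced UMIs, discarded poor cells and removed free RNA with SoupX. The deposited matrix holds expected counts, that is UMI counts after this removal, of which 1.28% are whole, and the sums matched the totals of the authors' cell table in all 41,106 cells. The strand setting of counting is not given in the sources used here. Cell types were the authors' labels, and 1025 multiplets and 7 cell cycle cells were left out, leaving 40,074 cells. No further doublet caller was run.

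Each cell was scaled to 10,000 transcripts and averaged per mouse and type, so n is the number of mice. Types needed 20 cells per mouse and 2 mice per group. limma 3.58.1 (R 4.3.3, trended variance) was fitted to log2(mean + 1), for genes detected in 10% or more of the cells in one group, and p was adjusted within each type (Benjamini-Hochberg, 0.05). No count model was used because the counts are corrected, and differences understate the change of low genes. The fit was also run on simulated data for capillary B cells and adventitial fibroblasts, whose outcome is not given here and is not used as support. Compartment levels and the difference in CS effect were tested by exact permutation over mice. Sequences were RefSeq promoter windows. Intervals between mice hold sampling error and differences between mice.

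The members and gene lists were chosen with earlier results of these data known. Named genes were the 9 members, up to 3 genes of each list called in the most of the 6 types, and the 5 genes most like Serpinh1 in level and in difference; the early response and clock lists, Dbp, Arntl, Col1a1 and Col1a2 were added after values were seen. Alternatives were the pseudocount (0.1), the detection filter (25% or none), lane or labelled sex as a term, summed counts, thinning to 2000 UMIs, equal medians, 50 cells and leaving out each mouse.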

Additional observations from a re-analysis of the deposited data

Results flagged for a closer look

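In groups of 4 mice, 69 sets of values of the members named above were examined for a mouse far from the other 3, by Dixon's criterion, which chance meets in about 1 of 20. There were 3, where 3.45 are expected. P4ha2 in capillary A endothelial cells was at 1.26 per 10,000 in RA replicate 1 and at 0.49 to 0.595 in the other RA mice. P4ha1 in arterial endothelial cells was at 0.695 in RA replicate 4 and at 1.46 to 1.56 in the others. P4ha1 in adventitial fibroblasts was at 1.91 in CS replicate 2 and at 1.2 to 1.25 in the others.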

How the results depend on the processing

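Of 635 recomputed log2 differences between CS and RA mice (38 member and type pairs), 559 kept their direction and side of the threshold, 57 lost and 12 gained a call and 7 reversed, all 7 uncalled: Serpinh1 in AT1 cells (−0.164 to 0.0227 when leaving out single mice), P4ha1 in arterial endothelial cells (0.0416 thinned, and −0.179 to 0.053 when leaving out single mice), and P4hb in capillary A cells (−0.0445 to 0.00167 when leaving out single mice) and adventitial fibroblasts (0.0186 thinned). A further 11 gave no value, 8 of them after thinning, 2 with the 25% filter and 1 with 50 cells per mouse. With no detection filter, Serpinh1 was called in 0 types and the other members in 1 pair, ER chaperones in 5 and heat shock genes in 1, where more genes were tested. With lane as a term these were 3, 1, 30 and 13. The other members gave 7 pairs from summed counts and 2 after thinning. Leaving out single mice gave 1 to 6 types for Serpinh1, 1 to 5 pairs for the other members, 21 to 47 for ER chaperones and 7 to 27 for heat shock genes. The last 2 counts and the alternatives for the difference in CS effect were added after seeing the data. For compartment levels, P4hb against epithelium lost its call with summed counts (0.148) and on leaving out any mouse but CS replicate 4 (0.15 to 0.208), and Plod3 against endothelium gained one with summed counts (−0.0478) and without CS replicate 1 (range −0.0532 to −0.0315). Differences not called with all mice reversed for P4ha2 against endothelium (0.0247), Plod3 (0.45) and Colgalt1 (0.246) against immune cells at pseudocount 0.1, and Plod3 against immune cells in RA mice (0.0103). On leaving out single mice, differences that changed sign or gained a call ranged from −0.0204 to 0.013 for Plod3 against immune cells, −0.0485 to 0.00477 and −0.0764 to −0.0185 for Colgalt1 against endothelium and immune cells, and −0.0324 to 0.092 for its difference in CS effect. Replicate numbers follow accession order and pair no mice, and the fit with lane as a term is the paired one, since each lane held 1 CS and 1 RA mouse. The cause of these shifts was not tested.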

Other observations

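Among RA mice, both labelled male were above both labelled female in Serpinh1 in 9 of the 13 cell types with 4 RA mice in which the gene was above the detection limit, for instance at 12.8 and 17.2 against 10.2 and 11.4 in adventitial fibroblasts. Over all genes in these types, 20.8% of pairs had both males above both females. The lanes of the RA males and females differ, so lane and sex cannot be told apart among the RA mice, and the types share the same 4 mice. The CS mice, whose sex-linked transcripts go against their labels, were left out of this count. Whether the same order holds in them was not tested.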
